A study of Mus musculus with 24 samples.

Results

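Inhibition of ERK together with CDK4/6 was compared with vehicle in mouse sciatic nerve. All 6 libraries whose treatment label gives both drugs and all 6 whose label gives vehicle were taken, 12 of the 24 libraries of the study, and the comparison is described across all genes. Vehicle and drugs were given for 1 week. The drugs were abemaciclib, an inhibitor of the cyclin-dependent kinases CDK4 and CDK6, and LY3214996, an inhibitor of the ERK kinases. Nerves treated with both are called the combination. Every group, vehicle included, had the genotype Nf1 flox/flox PostnCre+, in which a Cre recombinase driven by Postn regulatory sequence acts on floxed Nf1, and every library was labelled as plexiform neurofibroma, which is a benign nerve sheath tumour. Whole nerve was sequenced, so cells with and without recombined Nf1 were measured together. The sources used here give no age, sex or dose. The labels do not tie the libraries to individual animals, and a p-value here measures the spread between these samples, which may be technical.

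Neurofibromin, the product of Nf1, promotes hydrolysis of the GTP bound to RAS and so restrains the cascade from RAS through RAF and MEK to ERK. Active ERK induces immediate early transcription factors, ETS factors of the PEA3 group, and feedback inhibitors such as the Sprouty proteins and the phosphatase DUSP6. CDK4 and CDK6, bound to D cyclins, phosphorylate the retinoblastoma protein, which frees E2F factors to transcribe genes of DNA replication. A peripheral nerve holds Schwann cells, axons, fibroblasts, perineurial cells, macrophages, mast cells and vessels, and neurofibromas are known for abundant collagen.

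Total counts ranged from 5391543 to 42321550 in vehicle and from 12096063 to 18518610 in the combination, and the floor of detection, set at 3 counts, lay at 0.0697 to 0.536 CPM (counts scaled to an equal library total). Sox10, the lineage factor of Schwann cells, was at 273 to 515 CPM in vehicle and 303 to 580 CPM in the combination. Transcripts of that lineage were thus present throughout, which does not test the tumour label. Libraries differed in transcripts of sensory neuron cell bodies. The sodium channel gene Scn10a was at 0.355 and 9.76 CPM in vehicle 1 and 5 and at 52.2 and 0.316 CPM in combination 3 and 5, and it lay at 102 CPM or more in the other 8 libraries. Alb, a liver gene that marks carried-over liver RNA, was at most 1.61 CPM in all 12. Transcripts of 4 Y-linked genes summed to over 100 CPM in 4 vehicle and 3 combination libraries. Nf1 was at 359 ± 48.8 CPM (SD, n = 6) in vehicle and 341 ± 27.1 CPM (n = 6) in the combination (adjusted p = 0.832), which checks no label because all groups share the genotype.

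Of 15385 genes tested, 19 (0.123%) passed at an adjusted p under 0.05 in the quasi-likelihood test of edgeR, adjusted by the Benjamini-Hochberg method. Passed, rose and fell refer to that test throughout, and calls by DESeq2 or limma-voom are named as such. Of these 17 fell (0.110% of the tested genes) and 2 rose (0.0130%). The genes that fell were ERK-induced factors and feedback inhibitors (Etv4, Spry4, Egr3), matrix genes (Fbn2, Thbs1, Col9a2), receptors and adaptors of immune cells (Bank1, Klra2, Klrb1a, Timd4, Ccr1), the engulfment receptor gene Megf10, and Fjx1, Pomk, Arsb, Osgin2 and the long noncoding RNA BC039771. Those that rose were Atf3 and Lzts3. The falls ranged from 1.43-fold to 6.05-fold, and for each of the 19 genes 6 of 6 combination libraries were on a single side of the mean of vehicle. For 12 of the genes that fell and both that rose, the combination and vehicle libraries did not overlap at all. Over all tested genes 89 (0.578%) lay wholly below vehicle and 43 (0.279%) wholly above. At an unadjusted p under 0.05 there were 1012 lower and 758 higher genes, 6.58% and 4.93% of those tested, and the median log2 fold change of all genes was 0.04. Of all tested genes 56.4% had a log2 fold change above 0 and 43.6% below, the shares beside which list counts are to be read.

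**Figure D1:**
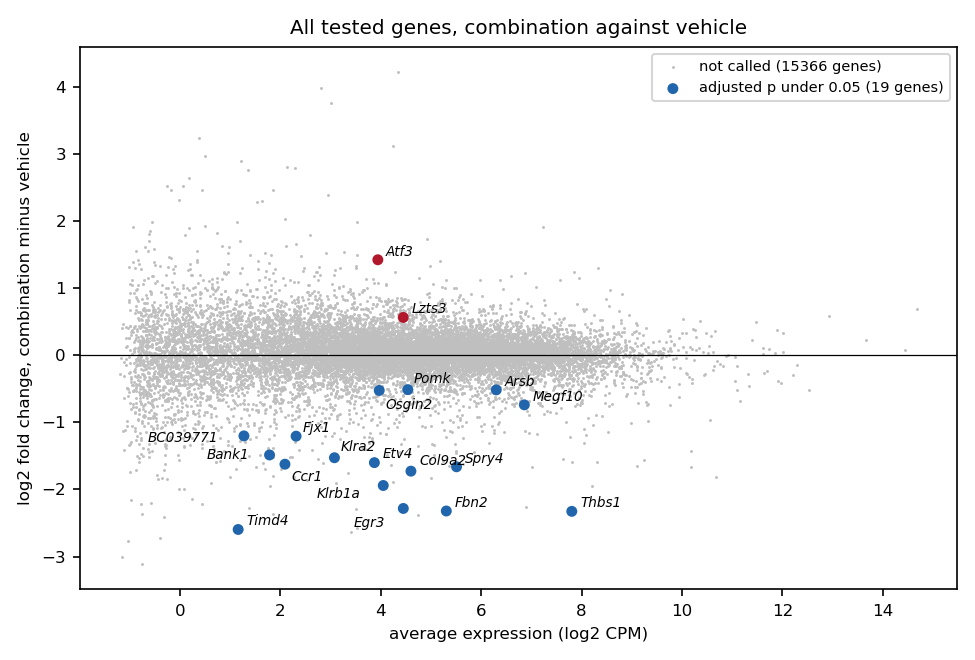
Log2 fold change (combination minus vehicle, vertical axis) against average expression in log2 CPM (horizontal axis) for the 15385 tested genes. Grey points are genes that did not pass; blue points are the 17 genes that fell and red points Atf3 and Lzts3, which rose.

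How many genes passed depended on single libraries, whereas the direction of the 19 did not: none of them changed sign in any of the 28 alternative analyses. Without vehicle 4, 94 genes passed, among them all 19. Without vehicle 1, 2 genes passed, without vehicle 2, 3 or 5 1 gene each and without vehicle 6 4 genes, all of them among the 19. Without combination 1, 6 genes passed, and without combination 6 1 gene, again among the 19. Without combination 3, 16 passed, of which 10 were among the 19, and without combination 4, 3 passed, of which 2 were. Without combination 2 or without combination 5, edgeR called 0 genes, with 1621 and 1691 at an unadjusted p under 0.05. It also called 0 without the libraries poor in neuronal transcripts (vehicle 1 and 5, combination 3 and 5 and 2 of CDKi alone; 1099 unadjusted) and 0 with the adipocyte list level as a covariate (1301 unadjusted). That list was itself higher in the combination, so its part cannot be told apart from treatment. DESeq2 called 262 genes, including all 19, and limma-voom 30, including 14 of them. Etv4 passed in 9 of 12 fits that each left out a library, against 1 to 5 of 12 for each of the other 18 genes. Vehicle 4 had the lowest vehicle level for 9 of the 17 genes that fell, and combination 5 the lowest combination level for 8.

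**Figure D2:**
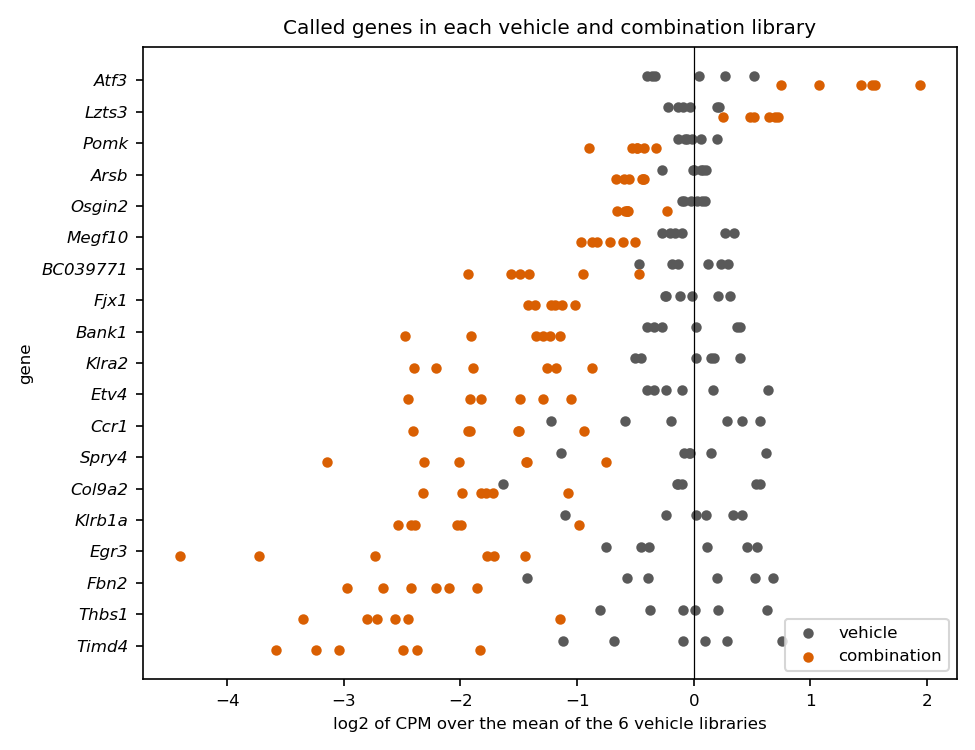
Each library's CPM over the mean of the 6 vehicle libraries, on a log2 axis, for the 19 genes that passed (grey, vehicle; orange, combination; each point is a library). Orange points lie left of 0 for the 17 genes that fell and right of 0 for Atf3 and Lzts3, and the 2 groups overlap for BC039771, Ccr1, Spry4, Col9a2 and Klrb1a.

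Of the transcripts that ERK is known to induce, Etv4, Spry4 and Egr3 fell. Etv4 (chr11:101769747-101785310, mm10), a PEA3-group ETS transcription factor, had a lowest, median and highest level of 14.1, 16.6 and 28.9 CPM in vehicle and 3.41, 5.95 and 8.99 CPM in the combination. Every combination library lay below every vehicle library, and Etv4 fell by 1.60 on the log2 scale (SE 0.24, adjusted p = 0.0169), 3.03-fold. In what follows, a value with ± is the log2 fold change with its SE, or a mean CPM with its SD over the 6 libraries of a group. Etv5 and Etv1, relatives of Etv4, did not pass, with log2 fold changes of -0.46 ± 0.22 SE (adjusted p = 0.417) and -0.09 ± 0.16 (adjusted p = 0.888). Spry4, a Sprouty inhibitor of receptor tyrosine kinase signalling, was at 27.2, 58.2 and 92.0 CPM in vehicle and 6.76, 18.4 and 35.5 CPM in the combination. Only vehicle 4 fell within the range of the combination, and the change was -1.66 ± 0.33 (adjusted p = 0.0399). Of the other 5 Sprouty and Spred genes, Spry1 was at -0.70 ± 0.24 (adjusted p = 0.219) and Spred1 at -0.51 ± 0.14 (adjusted p = 0.123). Spry2, Spred2 and Spred3 were at -0.33, -0.22 and 0.09.

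Egr3 (chr14:70077317-70082613), an immediate early zinc finger factor, was at 19.8, 30.9 and 48.6 CPM in vehicle and 1.58, 7.42 and 12.3 CPM in the combination. No library of the combination reached the vehicle range, and the fall was 4.87-fold (log2 fold change -2.28 ± 0.44, adjusted p = 0.0361). Egr1, the founding member of the same family, did not pass, at an adjusted p of 0.05001, with levels of 102, 163 and 205 CPM against 7.51, 38.1 and 55.1 CPM (-2.25 ± 0.46). Combination 5 and 6 were lowest for both genes, at 1.58 and 2.52 CPM for Egr3 and 7.51 and 8.95 CPM for Egr1. Egr2, which also drives myelination in Schwann cells, was at 103 ± 17.6 CPM in vehicle and 50.4 ± 20.7 CPM in the combination (-1.03 ± 0.28, adjusted p = 0.132), with no overlap between the groups. The Nab corepressors of Egr factors were level, Nab1 at 0.02 and Nab2 at 0.05. Among AP-1 genes Fos was at -0.59 ± 0.39 and Fosb at -1.01 ± 0.61, while Jun and Junb were at 0.09 and -0.05, and none of these 4 passed (adjusted p from 0.554 to 0.956). Of 23 immediate early genes in all, Egr3 fell and Atf3 rose, 11 were below 0 and 12 above, and the median was 0.0031, a sign that differed in 13 of the 28 alternatives.

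Of 22 tested ERK output factors and feedback inhibitors, 2 fell (Etv4 and Spry4) and none rose. DESeq2 called 6, all lower, and limma-voom 4. The list had 18 members below 0 and 4 above, 12 of them at an unadjusted p under 0.05 and all of those lower, and a median log2 fold change of -0.40 against 0.04 over all genes. Besides those named, Dusp6 was at 218 ± 31.5 CPM in vehicle and 120 ± 32.6 CPM in the combination with no overlap (-0.86 ± 0.19, adjusted p = 0.0690). Dusp4, another phosphatase of the pathway, was at -1.01 ± 0.27 (adjusted p = 0.123) and Phlda1 at -1.07 ± 0.26 (adjusted p = 0.0988). The mean level of the list was 4.61 to 5.22 log2 CPM in vehicle and 4.01 to 4.78 in the combination, and only combination 3 reached the vehicle range. The 26 genes of the cascade itself, from receptors' adaptors to ERK, had a median of 0.04, with 0 called by edgeR, DESeq2 or limma-voom and 2 at an unadjusted p under 0.05 by edgeR. Mapk3, which encodes an ERK kinase, was at -0.05 ± 0.13 (adjusted p = 0.933).

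Promoter sequence was examined for binding motifs of ETS factors, the serum response factor, AP-1 and CREB/ATF factors, all chosen after the called genes were known. RefSeq (GRCm38.p6) start sites gave a window of 250 bases before the start for 10 of the 19 called genes. Etv4, Spry4, Egr3, Thbs1 and Fbn2 were among those without a window, so their promoters were not examined. The ETS core CCGGAA was found on either strand in 12% of all 32851 windows and in 1 of the 10 genes (Bank1). The AP-1 site TGANTCA (6.75% of windows), the CREB/ATF site TGACGTCA (1.55%) and the CArG box of serum response factor (1.47%) matched in none of the 10. Below are the windows of a start of Egr2 and of Dusp8, shown because they hold several matches, and both picked after matches were seen. Capitals mark the matches. In Egr2 (chr10:67537316-67537565, plus strand) the ETS core occurs on both strands in overlapping positions 131 to 124 bases before the start and again 48 to 43 bases before it, with a CArG box at 72 to 63 bases. In Dusp8 (chr7:142095285-142095534, minus strand) the CREB/ATF site occurs 107 to 100 and 63 to 56 bases before the start.
Egr2: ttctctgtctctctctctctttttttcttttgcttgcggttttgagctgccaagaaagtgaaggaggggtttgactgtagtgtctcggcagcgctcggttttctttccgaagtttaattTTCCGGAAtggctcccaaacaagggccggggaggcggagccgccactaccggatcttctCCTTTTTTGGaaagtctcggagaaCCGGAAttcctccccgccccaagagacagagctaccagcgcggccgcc
Dusp8: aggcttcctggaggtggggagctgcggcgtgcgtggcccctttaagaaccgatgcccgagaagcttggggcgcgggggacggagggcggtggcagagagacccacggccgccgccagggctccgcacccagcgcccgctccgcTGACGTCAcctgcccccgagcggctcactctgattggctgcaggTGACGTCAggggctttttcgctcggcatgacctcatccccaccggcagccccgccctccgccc
Neither gene passed the test. Dusp8, a phosphatase for JNK and p38 kinases, was at 13.4, 18.4 and 21.1 CPM in vehicle and 16.7, 29.7 and 35.2 CPM in the combination (0.68 ± 0.15, adjusted p = 0.0770). A match is a match of letters and shows no binding.

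Both genes that rose did so without overlap between the groups. Atf3 (chr1:191170296-191183333), a CREB/ATF-family factor induced by stress and by axon injury, was at 7.50, 9.05 and 14.2 CPM in vehicle and 16.6, 27.7 and 38.0 CPM in the combination. It rose 2.68-fold (1.42 ± 0.26, adjusted p = 0.0361), and combination 5 was the highest. Atf4, which acts upstream of Atf3 in the integrated stress response, was at -0.13 ± 0.09 (adjusted p = 0.602). Of the 20 stress response and amino acid genes 0 passed by edgeR, with 2 at an unadjusted p under 0.05 (Psat1 and Atf5). The part of a stress response in the rise of Atf3 was not tested. Lzts3 (chr2:130632765-130642866), a leucine zipper scaffold protein gene known from synapses, was at 15.2, 16.95 and 20.5 CPM in vehicle and 21.02, 26.5 and 29.1 CPM in the combination. It rose 1.48-fold (0.56 ± 0.10, adjusted p = 0.0313). Lzts2 was at 0.30 ± 0.20 and Lzts1 at 0.73 ± 0.80.

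Of the matrix genes, Thbs1, Fbn2 and Col9a2 fell. Thbs1 (chr2:118111876-118127133), which encodes the matricellular protein thrombospondin 1, was at 200.2, 339 and 540 CPM in vehicle and 34.1, 56.1 and 157 CPM in the combination. It fell 5.01-fold (-2.33 ± 0.44, adjusted p = 0.0361), with combination 3 the highest of its group and still below every vehicle library. Fbn2, for the microfibril protein fibrillin 2, was at 24.5, 63.0 and 106 CPM in vehicle and 8.40, 13.3 and 18.2 CPM in the combination. It fell 4.996-fold (-2.32 ± 0.41, adjusted p = 0.0347) without overlap. Col9a2 (chr4:121039566-121055325), a chain of type IX collagen, was at 11.6, 33.2 and 53.4 CPM against 7.197, 10.35 and 17.1 CPM (-1.73 ± 0.34, adjusted p = 0.0399). Vehicle 4, at 11.6 CPM, lay inside the range of the combination, and the other 5 vehicle libraries lay above it.

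Of 41 tested matrix proteins and matrix enzymes other than collagens, 2 fell and none rose. DESeq2 called 9 of them, all lower, and limma-voom 2. The list had 35 members below 0 and 6 above, 22 lower and 1 higher at an unadjusted p under 0.05, and a median of -0.60. Without overlap between groups, but not passing, were Fn1 for fibronectin (1650 CPM in vehicle and 522 CPM in the combination, -1.66 ± 0.46, adjusted p = 0.136), the gelatinase gene Mmp2 (470 and 156 CPM, -1.59 ± 0.42, adjusted p = 0.123) and the microfibril gene Mfap2 (8.72 and 2.35 CPM, -1.86 ± 0.46, adjusted p = 0.0966). The higher member was the elastin gene Eln, at 4.74 and 8.61 CPM (0.85 ± 0.30, adjusted p = 0.238). Postn, whose regulatory sequence drives the Cre, was at 870 ± 465 CPM in vehicle and 441 ± 141 CPM in the combination (-0.98 ± 0.42, adjusted p = 0.351).

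The 27 collagen genes had 22 members below 0, 12 lower and 0 higher at an unadjusted p under 0.05, a median of -0.52, and no member that passed. DESeq2 called 6 collagen genes, all lower, and limma-voom 0. Col1a1, for the main chain of type I collagen, was at 2410 and 684 CPM (-1.82 ± 0.51, adjusted p = 0.136), Col8a1 at 185 and 58.0 CPM (-1.67 ± 0.43, adjusted p = 0.110) and Col6a2 at 286 and 97.7 CPM (-1.55 ± 0.41, adjusted p = 0.122). For all 3, 6 of 6 combination libraries lay below the mean of vehicle, though the groups overlapped for Col8a1 and Col6a2. For both matrix lists every combination library had a lower mean level than every vehicle library: 6.07 to 6.82 against 6.85 to 7.57 log2 CPM for collagens, and 5.52 to 6.31 against 6.44 to 6.996 for the other matrix genes. The alternatives left the medians of both lists below 0, from -0.61 to -0.41 and from -0.63 to -0.51. Of 17 nerve fibroblast genes 11 were below 0, with a median of -0.21 and 0 called by edgeR (4 at an unadjusted p under 0.05; DESeq2 1, higher; limma-voom 0), and Pdgfra was at 197 to 314 CPM in vehicle and 77.3 to 378 CPM in the combination. The part of fibroblast number in the matrix values was not tested.

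Itgb3, the integrin beta 3 chain of vitronectin receptors, was at 62.7 ± 27.0 and 19.9 ± 7.84 CPM (-1.66 ± 0.38, adjusted p = 0.0770). Of the 4 tested thrombospondin genes Thbs1 fell, while Thbs4, Thbs2 and Thbs3 were at -1.22 ± 0.41, -1.04 ± 0.40 and -0.38 ± 0.31 (adjusted p from 0.214 to 0.708). Of the fibrillins, Fbn1 was at -0.72 ± 0.36 (adjusted p = 0.445). Of 21 genes for TGF-beta ligands, receptors and targets, 12 were below 0 and 9 above, with a median of -0.10. At an unadjusted p under 0.05, 3 were lower and 3 higher. None passed by edgeR, DESeq2 called 2 lower and 1 higher, and limma-voom called 1, lower. Tgfbi was at 343 and 139 CPM (-1.31 ± 0.33, adjusted p = 0.0988). The BMP-responsive genes Id1 and Id3 were at 1.06 ± 0.35 and 0.64 ± 0.18 (adjusted p = 0.202 and 0.142).

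Receptors of lymphoid and myeloid cells also fell. In whole nerve, fewer cells of a type and less RNA per cell cannot be told apart. Klrb1a (chr6:128609227-128622934), a C-type lectin receptor of natural killer cells, was at 11.5, 25.9 and 32.9 CPM in vehicle and 4.26, 5.401 and 12.5 CPM in the combination (-1.94 ± 0.38, adjusted p = 0.0399). The only overlap was between vehicle 4 and combination 1. Klra2 (chr6:131198970-131247716), a receptor of the Ly49 family, was at 8.22, 12.35 and 15.4 CPM against 2.21, 4.004 and 6.39 CPM (-1.53 ± 0.28, adjusted p = 0.0361) without overlap. Their neighbours Klrb1c and Klrb1b were at -1.41 ± 0.32 (adjusted p = 0.0770) and -1.81 ± 0.40 (adjusted p = 0.0690). Klra17 and Klrg2, lectin receptor genes with vehicle means of 0.610 and 0.880 CPM, were at 0.30 ± 0.80 and 0.32 ± 0.39 (adjusted p = 0.926 and 0.83). These families hold near-identical copies, so the share of reads each member received is uncertain. Of 7 T and NK cell genes tested, Klrb1c among them, 3 were below 0 and 4 above, with a median of 0.40. None passed by edgeR (1 at an unadjusted p under 0.05), DESeq2 called Klrb1c and limma-voom 0, and Cd3e was at 0.68 and Il2rb at -0.16.

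Bank1 (chr3:136053363-136326141), a scaffold protein of B cell receptor signalling, was at 3.79, 4.61 and 6.61 CPM in vehicle and 0.901, 2.01 and 2.275 CPM in the combination (-1.49 ± 0.25, adjusted p = 0.0313). The groups did not overlap. Only 3 of 12 B and plasma cell genes had enough counts to be tested. Timd4 (chr11:46810786-46844333), a phosphatidylserine receptor of resident macrophages, was at 1.65, 3.61 and 6.07 CPM against 0.300, 0.538 and 1.01 CPM and had the largest fold change of the 19 genes, 6.05-fold (-2.60 ± 0.50, adjusted p = 0.0361). Its combination levels lay close to the floor of detection of those libraries, 0.160 to 0.262 CPM. Ccr1 (chr9:123962126-123968692), a receptor of CC chemokines, was at 2.59, 6.345 and 8.97 CPM against 1.14, 1.86 and 3.15 CPM (-1.62 ± 0.33, adjusted p = 0.0494), with vehicle 6 inside the combination range. Ccr2 was at -0.79 ± 0.40.

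Of 24 macrophage genes Timd4 fell, none rose, 19 were below 0 and the median was -0.21. Folr2, another gene of resident macrophages, was at 4.67 ± 1.96 and 1.65 ± 1.15 CPM (-1.49 ± 0.45, adjusted p = 0.158), whereas the general macrophage markers Adgre1 and Csf1r were at 18.6 to 28.4 and 97.2 to 133 CPM in vehicle and 11.4 to 62.3 and 47.1 to 159 CPM in the combination. Combination 3 held the highest level of both. Of 22 chemokine and cytokine genes none passed by edgeR or limma-voom and DESeq2 called Ccl2 and Cxcl12. Of the 22, 16 were below 0 and 7 were lower at an unadjusted p under 0.05. Ccl2, which recruits monocytes, was at 6.21, 15.5 and 28.5 CPM against 1.74, 3.46 and 4.81 CPM without overlap (-2.30 ± 0.57, adjusted p = 0.0988). Its relative Ccl7 was at -1.60 ± 0.58 (adjusted p = 0.249). Cxcl12 lay on the other side, at 44.1 and 82.7 CPM (0.91 ± 0.24, adjusted p = 0.123).

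Megf10, an engulfment receptor of glia, was at 120, 133 and 184 CPM in vehicle and 74.3, 84.7 and 102.5 CPM in the combination (-0.74 ± 0.15, adjusted p = 0.0429). The groups were separate. Of 21 tested engulfment receptors and bridging proteins, Megf10 and Timd4 fell and none rose. The other members were nearer to 0, with Mertk at -0.18 and Axl at -0.06, and the list median was -0.17. The mean level of the list was lower in every combination library (5.52 to 5.77 log2 CPM) than in every vehicle library (5.80 to 6.09).

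The remaining genes that fell share no list. Fjx1 (chr2:102449366-102451792), the homologue of Drosophila four-jointed, was at 5.11, 5.80 and 7.50 CPM in vehicle and 2.27, 2.62 and 3.003 CPM in the combination (-1.21 ± 0.23, adjusted p = 0.0361). It is also a target of YAP/TAZ signalling, a list of which 1 of 17 genes fell and the median was 0.07. Pomk (chr8:25980604-25994121), the kinase that phosphorylates the O-mannose glycan of dystroglycan, was at 25.3, 27.1 and 31.8 CPM against 14.9, 19.8 and 22.2 CPM (-0.51 ± 0.09, adjusted p = 0.0361). Arsb (chr13:93771679-93943016), a lysosomal sulfatase of glycosaminoglycans, was at 77.6, 95.8 and 101 CPM against 59.2, 66.5 and 69.6 CPM (-0.52 ± 0.11, adjusted p = 0.0494). Osgin2 (chr4:15996354-16015258) was at 17.1, 18.4 and 19.6 CPM against 11.6, 12.25 and 15.6 CPM (-0.53 ± 0.10, adjusted p = 0.0361). These 4 genes had separate groups, and for Pomk, Arsb and Osgin2 the change was small with a narrow spread. BC039771 (chr2:145701195-145753672) was at 2.31, 3.195 and 3.91 CPM against 0.837, 1.17 and 2.31 CPM (-1.20 ± 0.23, adjusted p = 0.0361), and vehicle 5 and combination 4 met at 2.31 CPM.

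Of the genes of the cell cycle, which lies downstream of CDK4 and CDK6, edgeR and limma-voom called 0 and DESeq2 called 4, all lower: Rfc3 and E2f8 among DNA replication genes, and Ccnb1 and Mki67 among mitosis genes. Of 47 tested E2F targets and DNA replication genes 24 were below 0 and 23 above, 3 were lower at an unadjusted p under 0.05 and the median was -0.01. The 3 were Rfc3, a subunit of the clamp loader (6.19 ± 1.08 and 3.67 ± 0.50 CPM, -0.75 ± 0.16, adjusted p = 0.0690, no overlap), E2f8 (-1.43 ± 0.41, adjusted p = 0.142) and Uhrf1. Mcm5, of the replicative helicase, was at 5.44 ± 0.82 and 5.21 ± 2.16 CPM, and Rrm2, of ribonucleotide reductase, at 1.80 ± 0.38 and 1.16 ± 0.54 CPM (adjusted p = 0.934 and 0.491). The mean level of the E2F list was 1.927 to 2.32 log2 CPM in vehicle and 1.871 to 2.219 in the combination. On that measure 4 combination libraries lay below every vehicle library, while the sign of the list median differed in 10 of the 28 alternatives. Of 42 mitosis genes 36 were below 0, 15 were lower and 1 higher at an unadjusted p under 0.05, and the median was -0.65, with 0 called by edgeR.

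The proliferation marker Mki67 was at 3.24, 17.02 and 21.6 CPM in vehicle and 1.01, 3.67 and 10.8 CPM in the combination (-1.75 ± 0.53, adjusted p = 0.162). Vehicle 4 and 6, at 3.24 and 7.11 CPM, lay within the combination range, and so did the list mean of both. Ccnb1, for cyclin B1, was at 1.04 ± 1.01 and 0.139 ± 0.0610 CPM (-2.72 ± 0.73, adjusted p = 0.123), with the combination levels at or near the floor. Bub1b went the other way, at 4.03 and 8.55 CPM (1.08 ± 0.41, adjusted p = 0.282). The list median was between -0.85 and -0.42 over the alternatives, nearest 0 with the adipocyte covariate. Of 15 genes for D cyclins, CDK4/6, RB proteins and CDK inhibitors 0 were called by edgeR (1 at an unadjusted p under 0.05), DESeq2 or limma-voom. Ccnd1, the cyclin D1 gene, was at 139 to 700 CPM in vehicle and 127 to 796 CPM in the combination (-0.16 ± 0.38), and Cdk4, Cdk6, Rb1 and Cdkn1a were at -0.15, -0.54, -0.12 and -0.21 (adjusted p from 0.519 to 0.804).

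**Figure D3:**
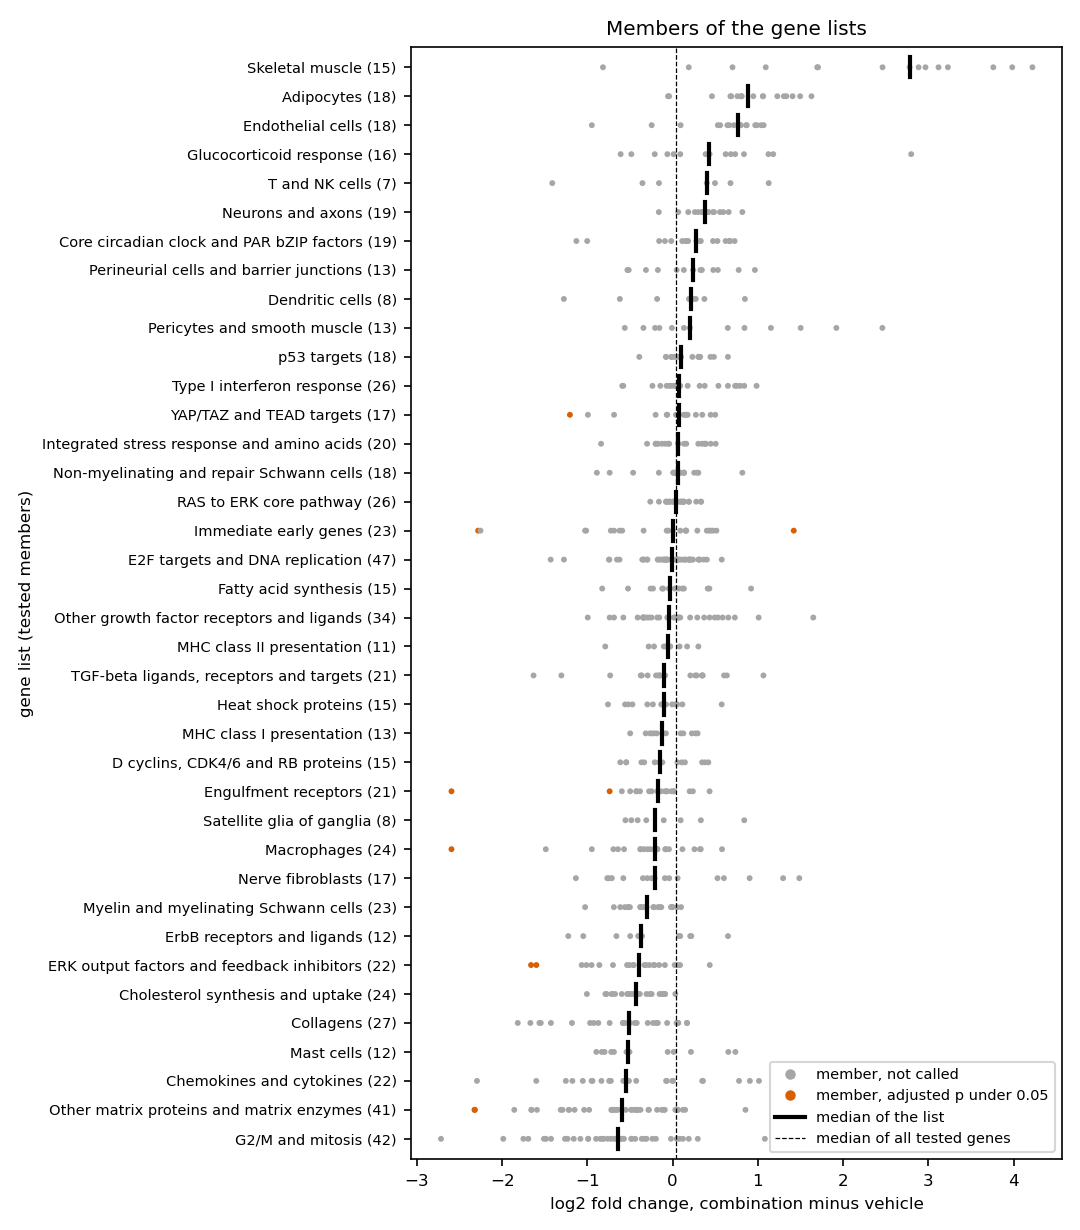
Log2 fold change (combination minus vehicle) of each tested member of the 38 gene lists with at least 7 tested members; orange points passed at an adjusted p under 0.05, black bars are list medians, and the dashed line is the median of all tested genes. Among these 38, mitosis, other matrix, chemokine, mast cell and collagen lists have the lowest medians, and skeletal muscle, adipocyte and endothelial lists the highest.

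Endothelial genes lay higher in the combination. Of 18 tested, 16 were above 0, 14 were higher and 1 lower at an unadjusted p under 0.05, and the median was 0.77, but none passed. DESeq2 called 3 (Esam, Vwf and Sox17), all higher, and limma-voom 0. Esam, an adhesion molecule of endothelial junctions, was at 10.4 ± 2.42 CPM in vehicle and 21.96 ± 10.03 CPM in the combination (1.07 ± 0.25, adjusted p = 0.0770). Vwf was at 65.3 and 129 CPM (0.99 ± 0.30, adjusted p = 0.161) and Sox17 at 9.55 ± 2.46 and 18.7 ± 11.9 CPM (0.97 ± 0.28, adjusted p = 0.142). The lower member was Lyve1, shared with macrophages and lymphatic vessels (-0.95 ± 0.30, adjusted p = 0.191). The list's mean level reached 5.02 log2 CPM in combination 3. It was 3.79 to 4.396 in the remaining 5 and 3.32 to 4.05 in vehicle.

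Several endothelial genes outside that list came close to passing. Arhgef15, an exchange factor of endothelial cells, was at 2.07, 3.04 and 3.68 CPM in vehicle and 4.36, 6.62 and 18.6 CPM in the combination (1.48 ± 0.31, adjusted p = 0.0508). Mecom was at 3.84, 5.16 and 8.35 CPM against 7.93, 13.1 and 19.5 CPM (1.20 ± 0.26, adjusted p = 0.0625), Lef1 at 1.07 ± 0.25 and Nos3, the endothelial nitric oxide synthase gene, at 1.80 ± 0.42 (adjusted p = 0.0770 for both). Nos3 rested in part on combination 3, at 37.8 CPM against 4.62 to 6.81 CPM in the other 5 and 2.32 to 4.26 CPM in vehicle. All 9 endothelial transcription factor genes examined, a set chosen after the results were seen, were above 0 (median 0.97), and none passed. Of all tested genes 56.4% were above 0. The set includes Mecom and Lef1, named for coming close to passing, and Sox17, so a count over it cannot test a shared direction. Synm, for the intermediate filament protein synemin, was at 110.5, 148 and 240 CPM against 288.5, 347.5 and 530 CPM without overlap (1.15 ± 0.25, adjusted p = 0.0625), and Lrg1 at 0.311, 0.816 and 2.09 CPM against 2.37, 4.46 and 6.47 CPM (2.28 ± 0.51, adjusted p = 0.0727).

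**Figure D4:**
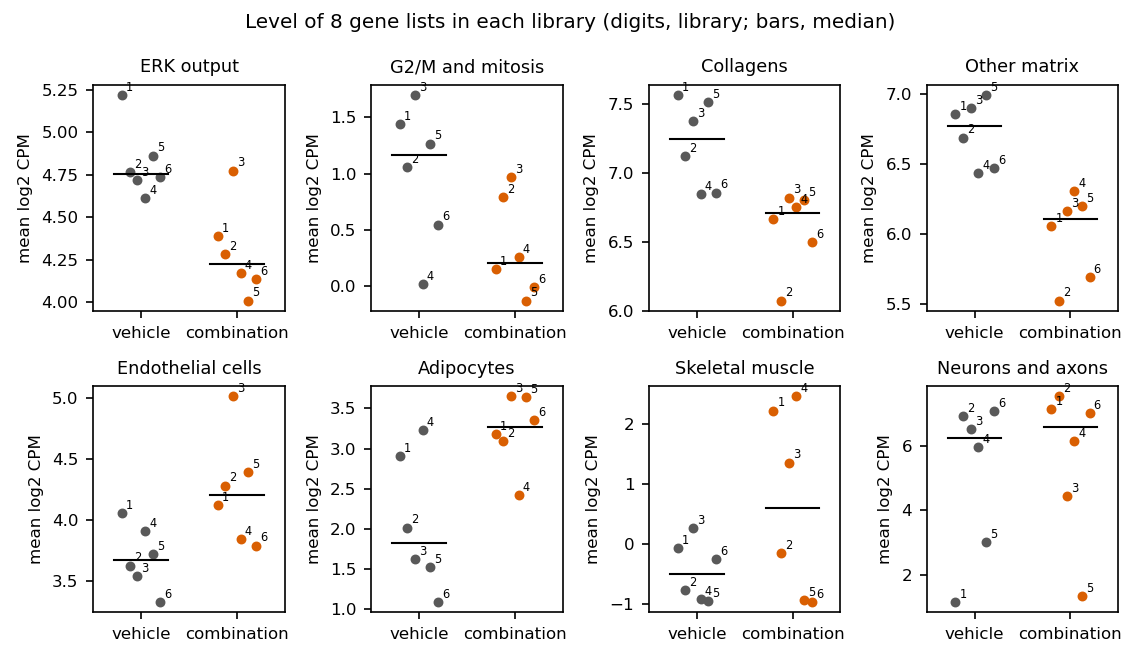
Mean log2 CPM of the tested members of 8 gene lists in each vehicle (grey) and combination (orange) library, numbered 1 to 6, with the median of each group as a bar; axes do not start at 0. All combination libraries lie below all vehicle libraries for collagens and other matrix genes, combination 3 is highest for endothelial genes, and vehicle 1 and 5 and combination 3 and 5 are lowest for neurons.

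Transcripts of fat, muscle and neuron cell bodies were examined because a nerve sample can hold such tissue. Adipocyte genes were above 0 in 16 of 18 members, 5 of them at an unadjusted p under 0.05, with a median of 0.88. Adiponectin (Adipoq) was at 0.623 to 9.23 CPM in vehicle and 3.06 to 14.5 CPM in the combination (1.496 ± 0.69, adjusted p = 0.400). The list level was 1.08 to 3.23 log2 CPM in vehicle and 2.42 to 3.65 in the combination, and vehicle 1 and 4 stood within the combination range. With that level as a covariate the endothelial median was 0.32. Skeletal muscle genes were above 0 in 14 of 15 members, with a median of 2.78 and 1 at an unadjusted p under 0.05. Their mean level was high in combination 1, 3 and 4, at 2.23, 1.36 and 2.47 log2 CPM, while the other 3 lay between -0.98 and -0.16 and vehicle between -0.96 and 0.27. Neuron genes had a median of 0.38 (18 of 19 above 0) with ranges of 1.15 to 7.07 log2 CPM in vehicle and 1.33 to 7.54 in the combination. None of the adipocyte, muscle or neuron genes passed by edgeR or limma-voom, DESeq2 called only Dgat2 of the adipocyte list, and the part of such tissue in the values of other genes was not tested beyond the covariate fits.

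Of 24 genes of cholesterol synthesis and uptake 23 were below 0, 9 of them at an unadjusted p under 0.05, and the median was -0.43. The 15 genes of fatty acid synthesis were divided, 8 below 0 and 7 above, with a median of -0.03. Neither list had a gene that passed, and DESeq2 called Hmgcs1 and Sc5d. Hmgcs1, which makes HMG-CoA for the pathway, was at 637 ± 252 CPM in vehicle and 317 ± 117 CPM in the combination (-1.01 ± 0.27, adjusted p = 0.124), and Sc5d at 134 ± 38.1 and 77.5 ± 26.7 CPM (-0.79 ± 0.23, adjusted p = 0.142). Of 23 myelin genes 21 were below 0, with a median of -0.31, and 3 were lower at an unadjusted p under 0.05. edgeR and limma-voom called 0 of them and DESeq2 called Egr2, lower. The mean level of the list was 6.84 and 7.497 log2 CPM in combination 2 and 3. It was 8.025 to 8.316 in the remaining combination libraries and 8.059 to 8.604 in vehicle. Genes of non-myelinating and repair Schwann cells had a median of 0.07.

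Each single drug was measured against the same 6 vehicle libraries, so the values that follow share their controls. edgeR called 0 genes after LY3214996 alone (ERKi, 975 at an unadjusted p under 0.05) and 0 after abemaciclib alone (CDKi, 480). Etv4 was at 14.8 ± 4.36 CPM after ERKi (-0.33 ± 0.24) and 18.6 ± 4.22 CPM after CDKi (0.00 ± 0.23), against 6.14 ± 2.01 CPM in the combination. It was the 1 gene with a call between the combination and CDKi (-1.60, adjusted p = 0.0167), where 1087 had an unadjusted p under 0.05. Against ERKi its difference was -1.27 (adjusted p = 0.221), and edgeR called 0 genes between the combination and ERKi (1437 unadjusted). The interaction term, which subtracts both single-drug changes from that of the combination, was -1.27 ± 0.34 for Etv4 (adjusted p = 0.409), and 0 genes passed it (568 unadjusted).

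Thbs1 was at 169 ± 103 CPM after ERKi (-1.04 ± 0.43) and 307 ± 151 CPM after CDKi (-0.18 ± 0.42). Lzts3 was at 22.5 ± 1.54 CPM after ERKi (0.35 ± 0.10) and 20.6 ± 2.04 CPM after CDKi (0.22 ± 0.10). Pomk was at -0.30 ± 0.09 after ERKi and -0.27 ± 0.09 after CDKi. Atf3 was at 12.5 ± 4.96 and 11.96 ± 4.24 CPM (0.33 ± 0.26 and 0.26 ± 0.26), and Spry4 at 49.8 ± 16.4 and 53.4 ± 16.7 CPM (-0.26 ± 0.32 and -0.16 ± 0.32). None of these single-drug values passed. The differences between the combination and either drug did not pass for these 5 genes (adjusted p from 0.175 to 0.548). A difference between the combination and a single drug was thus not shown for them.

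**Figure D5:**
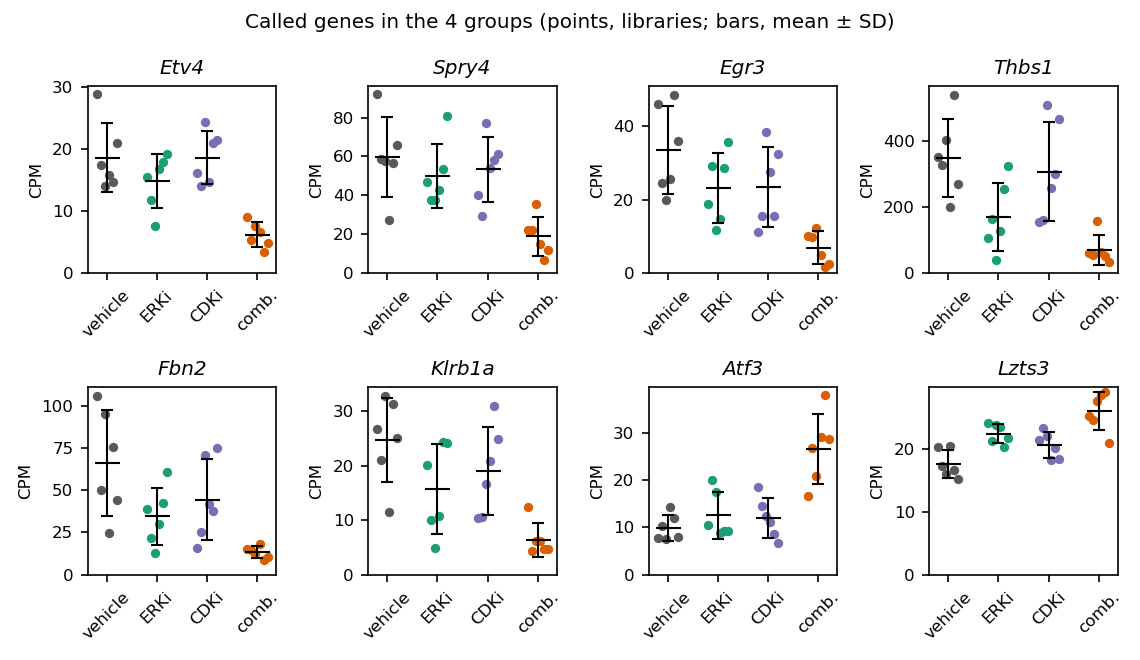
CPM of 8 genes that passed in the combination, in the 4 groups of 6 libraries (points) with mean ± SD (bars); each vertical axis starts at 0, and comb. is the combination. Etv4 lies at 3.41 to 8.99 CPM in the combination, below all vehicle libraries, and Atf3 at 16.6 to 38.0 CPM, above all of them.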

How the data were processed

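RNA of sciatic nerve was sequenced in 24 libraries, 6 in each of 4 groups taken from the treatment labels. Per the labels' protocols, RNA was purified with the RNeasy Plus Mini kit and libraries were made with KAPA RNA HyperPrep after ribosomal RNA removal with QIAseq FastSelect. The molecule label gives polyA RNA instead, so which RNA was sequenced is unclear. The submitters' processing notes name FastQC, STAR, DESeq2 and the build mm10. The counter, its annotation, its strand setting and versions are absent from the sources used here, so overlapping and antisense genes cannot be told apart. The deposited table holds whole-number gene counts of 24421 genes per library, and 1000 genes were at 0 in every library.

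Counts were analysed as deposited with edgeR 4.0.16 in R 4.3.3 (limma 3.58.1, DESeq2 1.42.0). The filterByExpr function (count minimum 10, total minimum 15) kept 15385 genes and at least 98.61% of the counts of each library. Libraries were scaled by TMM. A robust quasi-likelihood fit with a mean per group used all 24 libraries (20 residual degrees of freedom), the biological coefficient of variation was 35.92%, and p-values were adjusted by Benjamini-Hochberg over all tested genes, two-sided, at a threshold of 0.05. SE is the standard error of the log2 fold change, and CPM are TMM-scaled. List levels are means of log2 CPM with a prior count of 2. The steps were tested on simulated counts. Within a group, counts of the 30 pairs of libraries differed beyond sampling noise (lowest chi-square per degree of freedom 23.31), so each library counted once.

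Named were all genes that passed, the 8 higher and 8 lower genes nearest to passing at a mean log2 CPM of at least 1 (predicted genes, receptor segments and sex-linked genes aside), the 2 members of smallest p in each list and a set of pathway genes. A few genes that this rule names are not reported here. The members and lists were chosen with earlier results of these data known. Further list and family members were named after their values were seen, and families and promoter motifs were chosen after the called genes were known. Promoter sequences are from RefSeq. Replicate numbers follow accession order and name samples only. Alternatives in test, scaling, filter, libraries and covariates are given in the closing section.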

Additional observations from a re-analysis of the deposited data

Results flagged for a closer look

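In 28 of 316 group values a library stood apart from the other 5 of its group by Dixon's criterion, which chance alone meets in about 1 in 20 groups. Vehicle 4 was the library apart for Col9a2 (11.6 CPM, the others 32.5 to 53.4), Arsb (77.6, the others 93.5 to 101), Cd34 (56.2, the others 150 to 231), Ccr2 (20.2) and Sdc1 (14.1), all low. It was high for Rbl2 (151 CPM), Trp53inp1 (176 CPM) and Lcn2 (4.5 CPM, the others 0.714 to 1.21).

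Combination 5 was low for Pomk (14.9 CPM) and high for Synm (530 CPM). It was also low for the mean log2 CPM of the RAS to ERK genes (6.33), other growth factor receptors and ligands (4.72), heat shock proteins (6.23) and satellite glia (7.21). Combination 3 was high for Nos3 (37.8 CPM) and Fgfr3 (35.1 CPM, the others 2.16 to 5.74). Combination 1 was high for Osgin2 (15.6 CPM, the others 11.6 to 12.4), Klrb1a (12.5 CPM) and the red blood cell list (2.49 log2 CPM) and low for Rfc3 (2.71 CPM). Combination 4 was low for Dusp8 (16.7 CPM) and Cyp2e1 (7.8 CPM), and combination 6 for Tnnt1 (0.24 CPM).

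Vehicle 1 was high for Sox17 (14.4 CPM) and low for the stress response list (3.62 log2 CPM). Vehicle 2 was low for H2-DMb1 (21.1 CPM) and Alas2 (0.813 CPM), and its total of 42321550 counts stood above the other vehicle libraries.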

How the results depend on the processing

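Across 28 alternatives, 115 named genes gave 3209 values, of which 2761 kept both direction and call, 286 were no longer called, 150 were newly called and 12 were reversed. The number of genes called, 19, stayed within 1.5 times with RLE scaling (18), upper quartile scaling (17), a filter on CPM above 1 (16) and the title number as a covariate (16). DESeq2 called 262 genes, 78 higher and 184 lower, so that 70.2% were lower against 89.5% by edgeR. With its filter set for 0.05, a setting added after seeing the data and run before the default, DESeq2 called 272 (79 higher, 193 lower). The count was 30 with limma-voom, 6 without a count filter and 10 in only the 12 compared libraries. It was 108 without the 3 liver-positive libraries of the single drugs, 0 without the neuron-poor libraries and 1 without the deepest and shallowest. With covariates it was 37 (neurons, 70.3% lower), 0 (adipocytes), 12 (skeletal muscle) and 43 (sex read from Y-linked counts). Leaving out each library in turn gave 0 to 94 genes. The cause of these shifts was not tested. Reversed values were all of genes that did not pass. Il7r was at -0.0237 with limma-voom and Acta1 at -0.349 with the muscle covariate. Mapk3 was at 0.0317 with limma-voom, 0.0578 without neuron-poor libraries and 0.04 with the adipocyte covariate. Leaving out each library in turn gave -0.103 to 0.0272 for Mapk3, -0.66 to 0.142 for Ccnd1, -0.289 to 0.0569 for Mcm5 and -0.296 to 0.765 for Alas2. No paired analysis was possible because the labels give no replicate numbers that groups share. Depth limited genes near the floor, such as Ccnb1 and Timd4.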

Other observations

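Clock genes and glucocorticoid-induced genes lay above 0 for the most part, as did 56.4% of all tested genes. edgeR and limma-voom called 0 of them (9 at an unadjusted p under 0.05 by edgeR), and DESeq2 called Tef, Bhlhe41 and Lcn2, all higher. Of 19 clock and PAR bZIP genes 14 were above 0 (median 0.28). Tef, Cry2 and Bhlhe41 were at 0.73, 0.67 and 0.53, and the activators Npas2 and Arntl at -1.13 and -1.003 (adjusted p from 0.12 to 0.414 for these 5). Of 16 glucocorticoid-response genes 12 were above 0 (median 0.43). Lcn2 was at 2.80 (adjusted p = 0.0904) and Fkbp5 at 1.18 (adjusted p = 0.251). The list level was 5.49 to 7.25 log2 CPM in vehicle, highest in vehicle 4, and 5.90 to 7.54 in the combination, highest in combination 5.

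Of 12 genes for ErbB receptors and ligands 7 were below 0 and the median was -0.37. Type I interferon genes had a median of 0.07 with 19 of 26 above 0, MHC class I genes -0.12 and MHC class II genes -0.05. Of 13 pericyte and smooth muscle genes 8 were above 0 (median 0.20), and of 13 perineurial genes 9 (median 0.24), against 56.4% of all tested genes. None of the genes of these 6 lists was called by edgeR or limma-voom, and DESeq2 calls among them included Egfr (lower) and Lmod1, Myh11 and Slc2a1 (higher).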
